A study of Mus musculus with 16 samples.

Results

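The interaction of genotype and astrocyte Gi activation asks whether the difference that the activated receptor makes in the striatum is the same in knockout and in wild-type mice. It was computed per gene as the log2 change from KO_tdT to KO_hM4D minus the log2 change from WT_tdT to WT_hM4D, so a value of 0 means equal changes and a positive value means a higher change in knockouts. All 16 libraries of the series entered it, 16 of 16, with 4 in each group. The groups were wild-type mice with tdTomato (WT_tdT), wild-type mice with hM4Di (WT_hM4D), SAPAP3 knockout mice with tdTomato (KO_tdT) and SAPAP3 knockout mice with hM4Di (KO_hM4D). An adeno-associated virus injected into the striatum carried tdTomato or hM4Di for astrocytes, and every mouse in each of the 4 groups was given DCZ, the agonist of hM4Di. The promoter of the virus, the age and sex of the mice and the dose of DCZ were not given in the sources used here. No group had hM4Di without DCZ or neither virus nor DCZ, so the presence of the receptor and its activation cannot be told apart. For WT_hM4D 2, 3 and 4 the source label named the knockout, whereas the title, the description and the genotype field named the wild type, which is used here.

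SAPAP3, now Dlgap3, is a scaffold protein that links glutamate receptor complexes to the cytoskeleton at corticostriatal synapses, and mice that lack it groom compulsively. hM4Di is an engineered muscarinic receptor that couples to Gi proteins, which inhibit adenylyl cyclase and, in astrocytes, can also release calcium from internal stores. Neurons answer recent activity with immediate early genes, transcribed within minutes, whereas astrocytes answer injury, infection or receptor stimulation with a slower reactive programme that includes Gfap, Vim and complement C4b.

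Library totals ran from 129149745 to 180655067 counts. The targeted gene Dlgap3 lay at 294 to 437 and 346 to 429.6 CPM (counts relative to the library's TMM-scaled size) in the wild-type groups and at 157 to 164 and 153 to 167 CPM in the knockout groups, with no overlap, and its interaction was -0.066 (SE 0.13, 95% interval -0.35 to 0.22). Striatal identity genes were abundant in every library: Ppp1r1b (DARPP-32) was at 518 to 1035 CPM, Drd1 at 158 to 331 CPM and Adora2a at 113 to 235 CPM. Sex-linked transcripts did not fall evenly over the groups. In KO_hM4D all 4 libraries had Xist, the RNA of the inactive X chromosome, at 30.5 to 46.8 CPM, and the Y-linked genes Ddx3y, Eif2s3y, Kdm5d and Uty summed to at most 0.0949 CPM, whereas the other groups reached sums of 148, 142 and 148 CPM. In 4 libraries (WT_tdT 4, WT_hM4D 2, WT_hM4D 4 and KO_tdT 3) Xist and the Y-linked sum were both at 5% or more of their highest library level. KO_tdT 4 was just under that limit, with Xist at 28.2 CPM and a Y-linked sum of 7.23 CPM, so it too held both. For these 5 libraries 1 mouse per library is uncertain. WT_tdT 3 and WT_hM4D 1 were just under the limit for Xist, at 1.95 and 1.96 CPM, with Y-linked sums of 145 and 142 CPM. In KO_tdT 1 and 2 Xist was at 0 CPM. Whether WT_tdT 3 and WT_hM4D 1 held more than 1 mouse was not tested. Outside KO_hM4D, only WT_tdT 1 had a Y-linked sum as low as in that group, at 0.0506 CPM. The absence of Y-linked transcripts and membership of KO_hM4D therefore largely cannot be told apart.

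No gene passed the interaction test. With edgeR's quasi-likelihood test on 20825 genes, 0 had an adjusted p under 0.05 (0% called) and the smallest adjusted p was 0.407. At an unadjusted p under 0.05 there were 1410 genes, 6.77% of those tested, 684 positive and 726 negative. limma-voom also called 0, and DESeq2 called 12. Among those were the early genes Dusp1, Btg2, Csrnp1 and Ier2 and the clock gene Nr1d1 with a positive value, and Sned1, Avp and the Y-linked Uty, Ddx3y, Kdm5d and Eif2s3y with a negative value. Among 14208 genes of at least 1 CPM in a group, the median 95% interval reached 0.24 on the log2 scale to either side, and the values from the 5% to the 95% quantile ran from -0.31 to 0.28. That interval is not adjusted for the number of genes, and values of over 1 on the log2 scale did not pass the adjusted test. No interaction value below passed the adjusted test of edgeR with all libraries.

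The terms of the interaction share no library with each other, so they can be set side by side. In wild types 18 genes were called between hM4Di and tdTomato (0.0864% of those tested), and in knockouts 1 gene, C4b (0.0048%). With 1 library left out these counts ran from 6 to 65 and from 0 to 8, and DESeq2 called 256 and 124. At an unadjusted p under 0.05 in edgeR the comparisons were alike, with 2302 genes in wild types (11.05%) and 2313 in knockouts (11.11%). The median SE over genes of at least 1 CPM was 0.080 in each. Of the 18, Timp1, Il1a, Fbxw23 and 3425401B19Rik were under 1 CPM in every group. The 10 genes that rose in wild types had a median log2 change of 1.36 there and of 0.41 in knockouts, with 10 of 10 positive in knockouts. The 8 genes that fell in wild types had a median of -1.11 there and of -0.22 in knockouts, with 6 of 8 negative. Over all genes, 50.3% were positive in wild types and 50.5% in knockouts. All 18 were smaller in size in knockouts, but they were picked for their size in wild types, which favours that order. Across 14208 genes of at least 1 CPM, which are not independent replicates, the log2 changes of the genotypes had a Pearson r of 0.35 and a Spearman rho of 0.20.

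**Figure D1:**
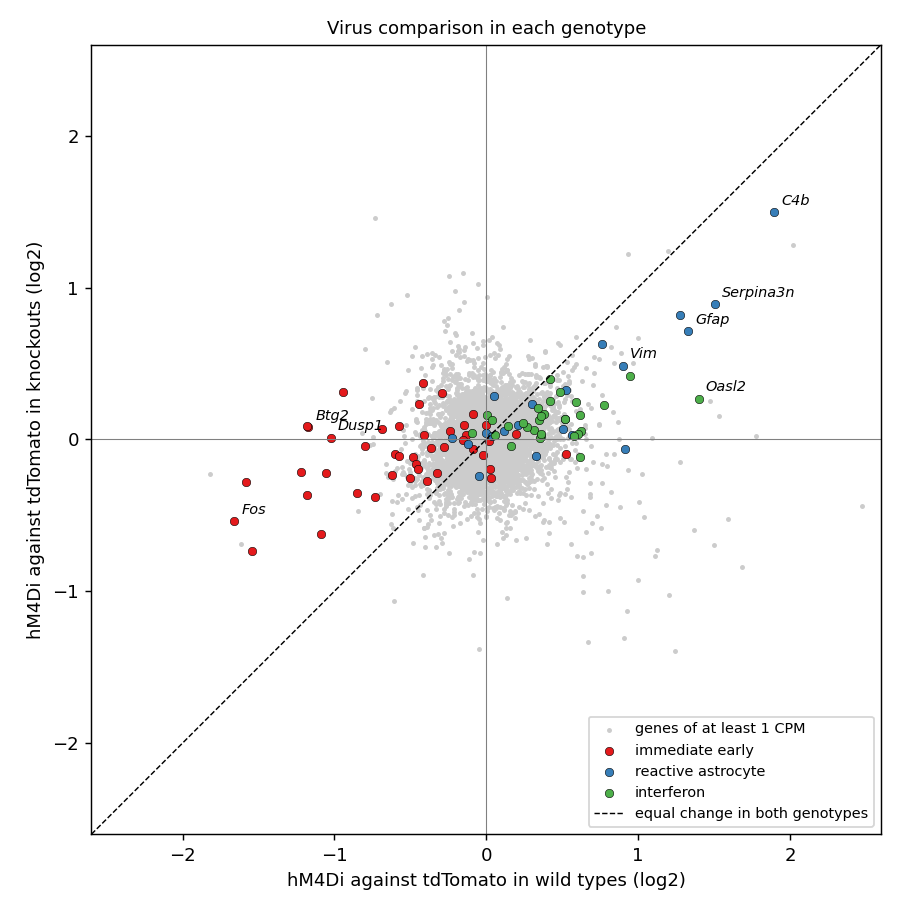
Log2 change from tdTomato to hM4Di in wild types (x axis) and in knockouts (y axis), 1 point per gene of at least 1 CPM in a group, with 3 gene lists coloured and 12 genes beyond the axes left out. Most immediate early genes lie above the dashed line of equal change and near 0 on the y axis, while C4b, Serpina3n, Gfap and Vim are positive on both axes.

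Immediate early genes were 7 of the 12 named positive genes of smallest p (Dusp1, Btg2, Csrnp1, Ier2, Dusp5, Cyr61 and Gadd45b). Of 45 tested, 39 had a positive interaction, against 48.8% of all genes, and their median was 0.37 against -0.0049 over all genes. At an unadjusted p under 0.05 there were 18 positive and 0 negative members, where 3.28% of all genes were positive at that level and 3.49% negative. The median of the list was -0.45 for hM4Di against tdTomato in wild types (39 of 45 negative) and -0.065 in knockouts (28 negative). The highest group mean was in WT_tdT for 35 of 45 members, against 27.3% of all genes. For 11 of them (Fos, Junb, Egr2, Arc, Dusp1, Btg2, Klf2, Gadd45b, Cyr61, Csrnp1 and Ppp1r15a) all 4 WT_tdT libraries lay above the other 12, as they did for 0.399% of all genes tested.

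Several early genes carry a sequence for signal-dependent transcription close to their start. The cAMP response element TGACGTCA, a palindrome that reads the same on both strands and is bound by CREB, and the CArG box, bound by serum response factor and likewise found on both strands, were searched in the 250 bases upstream of RefSeq starts on GRCm38.p6. TGACGTCA was found for 5 of the 36 immediate early genes that the table holds (Dusp1, Btg2, Maff, Arl4d and Ppp1r15a), in 5 of their 53 windows or 9.43%, against 1.55% of all 32851 windows. The CArG box was found for 3 (Egr2, Dusp5 and Zfp36), in 6 of 53 windows or 11.3%, against 1.47% of all. Some genes have several windows. Counted by gene, TGACGTCA was found for 5 of 36 against 478 of all 27025, and the CArG box for 3 of 36 against 439. The 200 bases before the start are shown for the pair of genes with the smallest p, for Arl4d with TGACGTCA 26 bases before its start, and for Dusp5, whose CArG boxes lie side by side. Capitals mark TGACGTCA in the first 3 and the CArG boxes in Dusp5. Their places are chr17:26508473-26508672, minus strand for Dusp1, chr1:134079156-134079355, minus strand for Btg2, chr11:101665341-101665540, plus strand for Arl4d and chr19:53528945-53529144, plus strand for Dusp5. A match describes the sequence and does not show binding.
Dusp1: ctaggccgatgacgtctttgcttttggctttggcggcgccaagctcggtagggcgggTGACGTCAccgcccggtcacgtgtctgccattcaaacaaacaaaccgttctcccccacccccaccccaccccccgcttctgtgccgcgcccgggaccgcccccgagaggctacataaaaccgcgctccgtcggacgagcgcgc
Btg2: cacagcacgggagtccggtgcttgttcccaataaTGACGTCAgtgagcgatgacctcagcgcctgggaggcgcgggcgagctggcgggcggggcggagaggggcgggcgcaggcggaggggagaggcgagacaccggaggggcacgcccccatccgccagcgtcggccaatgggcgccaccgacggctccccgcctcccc
Arl4d: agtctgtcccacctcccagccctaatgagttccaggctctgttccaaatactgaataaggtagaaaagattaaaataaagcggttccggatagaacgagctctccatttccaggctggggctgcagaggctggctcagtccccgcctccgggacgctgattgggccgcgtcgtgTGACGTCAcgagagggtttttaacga
Dusp5: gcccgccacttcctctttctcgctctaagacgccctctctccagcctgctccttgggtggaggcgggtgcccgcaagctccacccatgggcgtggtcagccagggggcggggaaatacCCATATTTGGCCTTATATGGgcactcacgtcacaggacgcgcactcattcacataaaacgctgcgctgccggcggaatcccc

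Among the feedback regulators, Dusp1, a phosphatase that switches off MAP kinases (chr17:26505590-26562128, GRCm38), was at 16.3, 18.6, 23.5 and 20.4 CPM in WT_tdT, 9.99, 9.19, 9.18 and 10.4 in WT_hM4D, 10.4, 8.56, 9.42 and 12.7 in KO_tdT, and 11.7, 11.3, 10.2 and 8.25 in KO_hM4D. The 4 WT_tdT libraries were all higher than the other 12, and the remaining groups overlapped. Its log2 change with hM4Di was -1.02 in wild types and 0.013 in knockouts. The interaction was 1.04 (SE 0.19, 95% interval 0.64 to 1.43) with an edgeR adjusted p of 0.407. Over the alternatives the adjusted p was lowest with DESeq2, at 0.000348, and at most 0.976. With edgeR it was 0.0294 without KO_tdT 4. Dusp5, a nuclear phosphatase of ERK (chr19:53529109-53542431, GRCm38), was at 8.75, 7.38, 9.42 and 9.37 CPM in WT_tdT, 5.93, 5.29, 5.97 and 6.27 in WT_hM4D, 7.13, 5.57, 5.17 and 7.84 in KO_tdT, and 6.78, 6.89, 6.77 and 6.93 in KO_hM4D. Here KO_tdT 4 lay within WT_tdT, so the groups overlapped, and the interaction was 0.66 (SE 0.16). Gadd45b, a growth arrest gene, had an interaction of 0.51 (SE 0.13), with means of 12 ± 0.535 CPM in WT_tdT, 7.91 ± 0.734 in WT_hM4D, 8.62 ± 0.756 in KO_tdT and 8.06 ± 1.04 in KO_hM4D (SD, n = 4).

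Btg2, which restrains cell division (chr1:134075170-134079120, GRCm38), was at 13.4, 24.2, 26.7 and 21 CPM in WT_tdT, 10.8, 9.11, 9.09 and 8.82 in WT_hM4D, 7.98, 8.17, 9.02 and 8.45 in KO_tdT, and 7.92, 8.4, 11.2 and 8.02 in KO_hM4D. WT_tdT 1 was the lowest of its group, at 13.4 CPM, and still above every library of the other groups, which overlapped each other. The log2 change was -1.17 in wild types and 0.079 in knockouts. The interaction was 1.25 (SE 0.23, 95% interval 0.77 to 1.74) with an edgeR adjusted p of 0.407. Over the alternatives the adjusted p was lowest with DESeq2, at 0.000348, and at most 0.976. With edgeR it was 0.00464 without WT_tdT 1. Csrnp1, a nuclear protein induced with other early genes (chr9:119971163-119984658, GRCm38), was at 10.5, 9.6, 12.5 and 9.87 CPM in WT_tdT, 8.18, 6.94, 8.36 and 7.75 in WT_hM4D, 7.56, 6.54, 6.16 and 7.2 in KO_tdT, and 7.61, 7.97, 8.32 and 8.37 in KO_hM4D. Its WT_tdT libraries were again the highest, and the 4 KO_hM4D libraries all lay above the 4 of KO_tdT, by little. Its log2 change with hM4Di was -0.44 in wild types and 0.23 in knockouts. The interaction was 0.68 (SE 0.13, 95% interval 0.41 to 0.94) with an edgeR adjusted p of 0.407. Over the alternatives the adjusted p was at most 0.976 and under 0.05 with DESeq2 only, at 0.000890. Ier2, a nuclear early response gene (chr8:84661331-84662852, GRCm38), was at 2.36, 3.67, 4.79 and 3.23 CPM in WT_tdT, 1.37, 2.12, 1.91 and 1.89 in WT_hM4D, 2.07, 1.36, 2.08 and 1.62 in KO_tdT, and 2.2, 2.76, 1.9 and 2.0 in KO_hM4D. WT_tdT 1 lay within KO_hM4D, so the groups overlapped, and the interaction was 1.26 (SE 0.29).

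The AP-1 factors differed among themselves. Fos, an AP-1 subunit, was at 24.8, 38.3, 47.8 and 48.9 CPM in WT_tdT, 15.9, 9.99, 12.7 and 12 in WT_hM4D, 12.3, 9.38, 12.6 and 20.6 in KO_tdT, and 7.95, 9.7, 12.5 and 7.56 in KO_hM4D. WT_tdT was the highest group without overlap, and KO_hM4D had the lowest mean. Its log2 change was -1.66 in wild types and -0.54 in knockouts, so it was negative in both genotypes, and its interaction was 1.12 (SE 0.34, 95% interval 0.39 to 1.85). Junb, another AP-1 subunit, was at 76.6, 83.9, 90.1 and 113 CPM in WT_tdT, 46.1, 37, 37.6 and 39.5 in WT_hM4D, 33.5, 32.1, 34.3 and 70.7 in KO_tdT, and 31.3, 36.4, 33.7 and 30.8 in KO_hM4D. KO_tdT 4 stood apart from the other KO_tdT libraries, and the interaction of 0.82 (SE 0.28) became 1.17 without it. Arc, a cytoskeletal regulator of synapses, had an interaction of 1.27 (SE 0.34), the nuclear receptor Nr4a1 one of 1.30 (SE 0.42), the pseudokinase Trib1 one of 0.78 (SE 0.21) and the transcription factor Klf2 one of 0.76 (SE 0.24). These and the next 5 genes were chosen after their values were seen, where the rule does not name them. Jund was at -0.083 (SE 0.11), Klf4 at 0.019 (SE 0.18), Fosl2 at 0.10 (SE 0.28) and Fosb at 0.12 (SE 0.23), and the activity-dependent growth factor Bdnf was at -0.28 (SE 0.54). Cyr61, a secreted matricellular protein, had an interaction of 1.01 (SE 0.25) and Apold1, an early gene of vascular endothelium, one of 0.83 (SE 0.24).

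**Figure D2:**
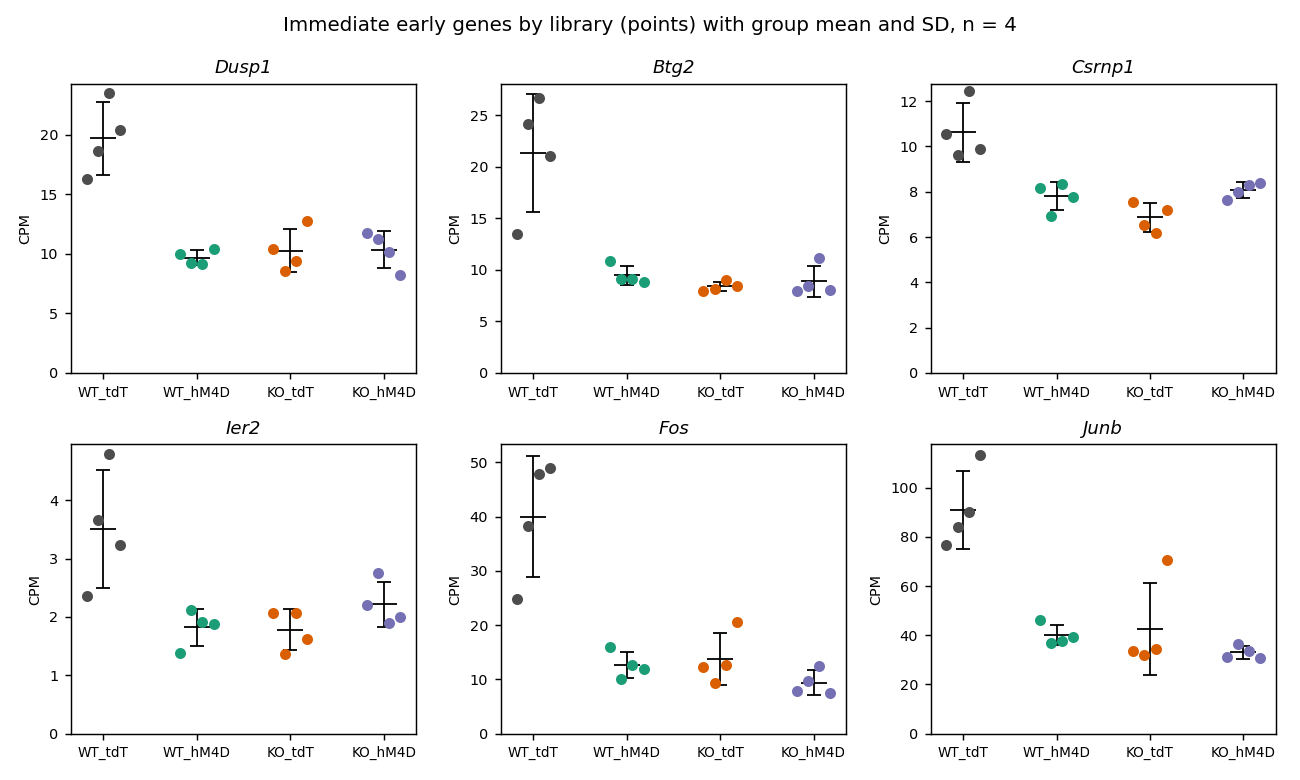
CPM of 6 immediate early genes in each library (points, replicates 1 to 4 from left to right) by group, with the group mean and SD (n = 4). For Dusp1, Btg2, Csrnp1, Fos and Junb all 4 WT_tdT points lie above the other 12, and KO_tdT 4 stands above the rest of its group for Fos and Junb. For Ier2 the lowest WT_tdT point lies within KO_hM4D.

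The mean log2 level of the early gene list was 4.07, 4.18, 4.32 and 4.48 in WT_tdT 1 to 4, 3.80, 3.75, 3.78 and 3.63 in WT_hM4D, 3.77, 3.68, 3.61 and 4.00 in KO_tdT and 3.61, 3.78, 3.78 and 3.66 in KO_hM4D. WT_tdT was thus the highest group, followed by KO_tdT 4, and the other 11 libraries overlapped. The list median of the interaction stayed positive, from 0.16 to 0.47, over the 26 alternatives. The lowest value came without the 4 libraries over the 5% limit for both Xist and Y-linked transcripts, with KO_tdT 4 kept (33 of 45 positive), and it was 0.35 with the Y-linked level as a covariate. WT_tdT 1, nearly without Y-linked transcripts, had the lowest early gene level of the group. WT_tdT 4, with Xist at 26.9 CPM and a Y-linked sum of 20.4 CPM, had the highest of all libraries. KO_tdT 4, with Xist at 28.2 CPM and a Y-linked sum of 7.23 CPM, had the highest of KO_tdT.

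Clock and glucocorticoid-responsive genes leaned the same way. Of 20 clock genes 16 were positive with a median of 0.17, against 48.8% positive over all genes, the share to set beside every list below. At an unadjusted p under 0.05 there were 3 positive and 1 negative, against 3.28% and 3.49% of all genes. Nr1d1, the transcriptional repressor REV-ERB alpha (chr11:98767932-98775333, GRCm38), was at 62.1, 52.7, 54.2 and 52.2 CPM in WT_tdT, 33.8, 40.5, 31 and 37.6 in WT_hM4D, 37.7, 28.7, 41.9 and 40.6 in KO_tdT, and 44.8, 49.2, 35.6 and 40.6 in KO_hM4D. Its WT_tdT libraries were above all others, and the other groups overlapped. The log2 change was -0.63 in wild types and 0.19 in knockouts. The interaction was 0.82 (SE 0.17, 95% interval 0.47 to 1.18) with an edgeR adjusted p of 0.658. Over the alternatives the adjusted p was at most 0.983 and under 0.05 with DESeq2 only, at 0.00788. The circadian repressor Ciart had an interaction of 0.72 (SE 0.22) and the ubiquitin protease Usp2 one of 0.27 (SE 0.083). Cry1, a core repressor of the clock, had the opposite sign at -0.51 (SE 0.15): it was at 19.8, 19.3, 17.1 and 21.3 CPM in WT_tdT, 29.9, 21.3, 31.3 and 27.4 in WT_hM4D, 24.7, 26.2, 20.2 and 24.1 in KO_tdT, and 24.2, 23.6, 23.6 and 23.8 in KO_hM4D. WT_tdT had the lowest mean, and the groups overlapped.

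Of 20 glucocorticoid response genes 18 were positive with a median of 0.18. In this list 5 were positive at an unadjusted p under 0.05, against 3.28% of all genes. The median was 0.11 with 13 positive without WT_tdT 1 and 0.27 without KO_tdT 1, and it ran from 0.10 to 0.27 over the alternatives. The median in the virus comparison was -0.15 in wild types and 0.17 in knockouts. Ddit4, a stress-induced inhibitor of mTORC1 (chr10:59949669-59951834, GRCm38), was at 27.4, 23, 21.1 and 23 CPM in WT_tdT, 18.6, 15.4, 18.2 and 18.2 in WT_hM4D, 14.5, 17.7, 14.3 and 23.5 in KO_tdT, and 18.8, 18.7, 22.1 and 19.8 in KO_hM4D. KO_tdT 4 lay within WT_tdT and above KO_hM4D, so the groups overlapped, and the interaction was 0.61 (SE 0.18). The kinase gene Sgk1 was at 160.5, 82.5, 96.9 and 116 CPM in WT_tdT, 80.3, 73.3, 70.6 and 74.7 in WT_hM4D, 78.8, 64.6, 65.9 and 145 in KO_tdT, and 103, 92.6, 98.1 and 115 in KO_hM4D. KO_tdT 4 was again far above its group, and the interaction was 0.81 (SE 0.32). Arl4d, a small GTPase that is also in the early gene list, had 0.76 (SE 0.24) and Nfkbia, the inhibitor of NF-kB, 0.51 (SE 0.17). For these genes too KO_tdT 4 was the highest KO_tdT library, as it was for the early gene list.

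Most reactive astrocyte genes had higher values with hM4Di in each genotype, with a smaller list median in knockouts, and the interaction did not pass the test. C4b, Gfap, Serpina3n and Vim, given below, are among the genes called in wild types, which favours larger changes there. C4b, a complement component (chr17:34728380-34743882, GRCm38), was at 27.6, 25.7, 16.7 and 20.6 CPM in WT_tdT, 69.7, 81.2, 93.9 and 92.1 in WT_hM4D, 17.3, 19.5, 19.5 and 22.7 in KO_tdT, and 63.3, 29.9, 66.5 and 63.4 in KO_hM4D. Every hM4Di library of both genotypes lay above every tdTomato library, with KO_hM4D 2 closest to the controls. C4b rose by 1.90 (SE 0.21) in wild types (edgeR adjusted p = 0.000767) and by 1.5 (SE 0.21) in knockouts (edgeR adjusted p = 0.0448), and the interaction was -0.40 (SE 0.29, 95% interval -1.01 to 0.21). The call in knockouts held in 7 of the 26 alternatives. Gfap, the astrocyte intermediate filament (chr11:102887336-102900912, GRCm38), was at 62.5, 82, 74.8 and 85 CPM in WT_tdT, 182, 199, 199 and 186 in WT_hM4D, 68.6, 73.4, 74.9 and 102 in KO_tdT, and 161, 88.9, 141 and 132 in KO_hM4D. In knockouts KO_hM4D 2 lay below KO_tdT 4, so the groups overlapped. Gfap rose by 1.33 (SE 0.15) in wild types (edgeR adjusted p = 0.00107), its value in knockouts was 0.71 (SE 0.15) (edgeR adjusted p = 0.183), and the interaction was -0.62 (SE 0.22, 95% interval -1.08 to -0.16).

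Serpina3n, an acute-phase inhibitor of proteases (chr12:104406729-104414329, GRCm38), was at 5.46, 6.63, 7.17 and 5.9 CPM in WT_tdT, 15.5, 22.4, 16.5 and 17 in WT_hM4D, 8.68, 8.12, 7.35 and 6.71 in KO_tdT, and 17.3, 9.95, 16.8 and 13.3 in KO_hM4D. No hM4Di library overlapped the tdTomato libraries, and KO_hM4D 2 was again the closest to them. The log2 change was 1.51 in wild types and 0.89 in knockouts, with an interaction of -0.61 (SE 0.22). Vim, another intermediate filament, was at 14.1, 13.5, 12.5 and 13.2 CPM in WT_tdT, 21.8, 26.9, 27.5 and 23.2 in WT_hM4D, 14.1, 12.6, 12.8 and 14.3 in KO_tdT, and 21.2, 15.2, 19.9 and 18.9 in KO_hM4D. The order was the same, and the interaction was -0.41 (SE 0.13). The small heat shock protein Hspb1 had -0.98 (SE 0.28). Over the list of 29 genes 22 were negative with a median of -0.25 (-0.16 without WT_hM4D 3), where 48.8% of all genes were positive. At an unadjusted p under 0.05 there were 8 negative and 0 positive members, against 3.49% and 3.28% of all genes. The median change of the list with hM4Di was 0.51 in wild types (24 positive, 5 negative) and 0.10 in knockouts (22 positive, 7 negative). Interaction values of the list ran from -1.96 to 1.56, so some members went the other way.

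KO_hM4D 2 moved with these values. Its level of Chrm4, the mouse counterpart of the receptor from which hM4Di was made, was 65.2 CPM, the lowest of the 8 hM4Di libraries, whose others were at 70.2 to 92.8 CPM. Chrm4 was at 63.2, 53.6, 49 and 62.8 CPM in WT_tdT, 85.8, 92.8, 80.2 and 85 in WT_hM4D, 42.2, 51.4, 46.5 and 76.3 in KO_tdT, and 84.9, 65.2, 85.1 and 70.2 in KO_hM4D. KO_tdT 4 reached the hM4Di range, and the wild-type groups did not overlap. Chrm4 is also in the list of direct pathway projection neuron markers. The mean log2 level of shared projection neuron markers was 8.04 in KO_hM4D 2, the lowest of all libraries. It was 8.74 in KO_tdT 4, and 8.11 in WT_hM4D 2, which had the highest Chrm4. Whether reads of the viral receptor were counted to Chrm4, or how far the share of these neurons set its level, was not tested. The Chrm4 interaction was -0.092 (SE 0.21, 95% interval -0.54 to 0.35). Without KO_hM4D 2 the interaction of C4b was -0.19, of Gfap -0.47, of Serpina3n -0.47 and of Vim -0.33, all still negative.

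**Figure D3:**
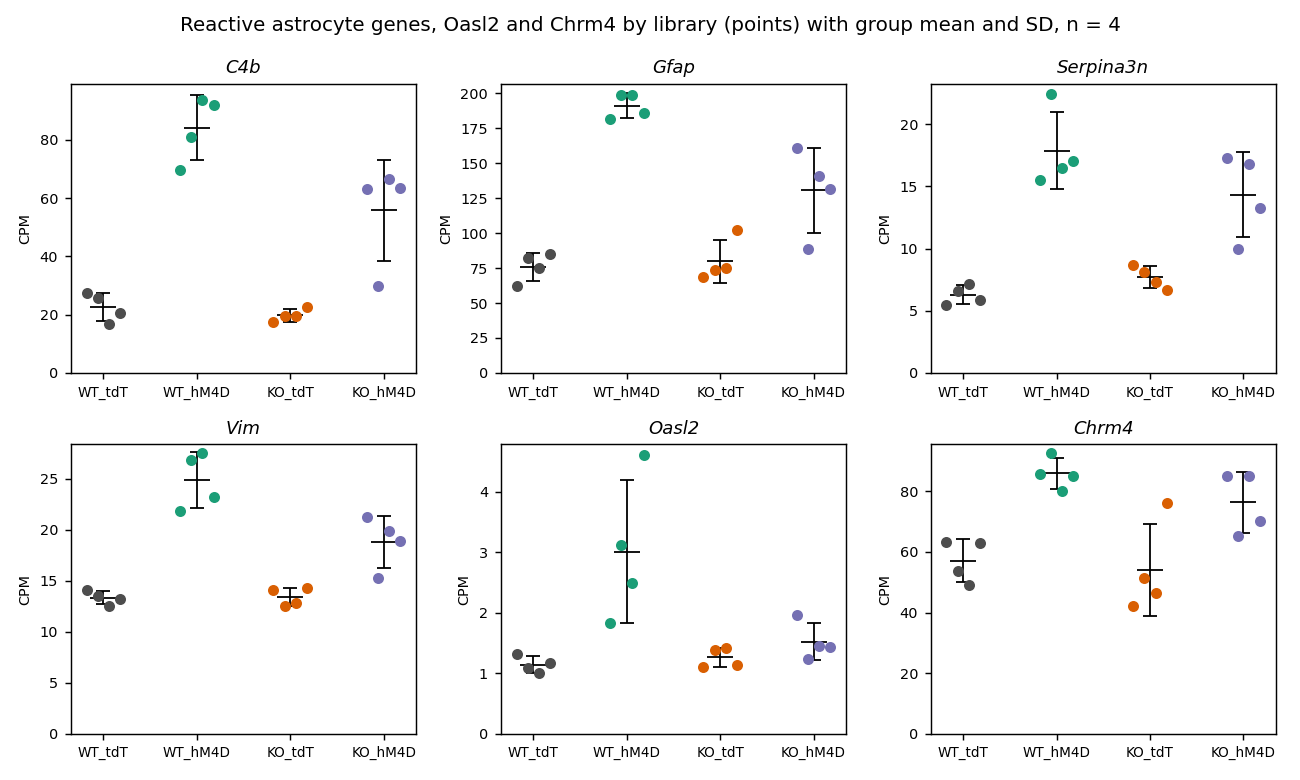
CPM of reactive astrocyte genes, the interferon-induced gene Oasl2 and the receptor gene Chrm4 in each library (points, replicates 1 to 4 from left to right) by group, with the group mean and SD (n = 4). C4b, Serpina3n and Vim are higher in every hM4Di library than in every tdTomato library, and the second KO_hM4D point is the lowest hM4Di point for each of the 4 reactive genes.

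Interferon-induced genes, which cells switch on against viruses, leaned to the negative side. Of 39 tested, 34 had a negative interaction, with a median of -0.32, where 48.8% of all genes were positive. At an unadjusted p under 0.05 there were 8 negative and 0 positive members, against 3.49% and 3.28% of all genes. The median change of the list with hM4Di was 0.42 in wild types and 0.11 in knockouts. The highest mean was in WT_hM4D for 36 of 39, against 24.5% of all genes. Oasl2, of the oligoadenylate synthetase family (chr5:114896936-114912234, GRCm38), was at 1.32, 1.08, 1.0 and 1.17 CPM in WT_tdT, 1.83, 3.12, 2.49 and 4.6 in WT_hM4D, 1.1, 1.39, 1.41 and 1.14 in KO_tdT, and 1.96, 1.24, 1.45 and 1.44 in KO_hM4D. WT_hM4D 4 was the highest and WT_hM4D 1 lay below KO_hM4D 1. Oasl2 rose by 1.40 (SE 0.22) in wild types (edgeR adjusted p = 0.0213), its value in knockouts was 0.27 (SE 0.22), and the interaction was -1.13 (SE 0.32, 95% interval -1.80 to -0.46). Ifit3, an antiviral protein, was at 6.67, 6.11, 6.8 and 6.27 CPM in WT_tdT, 7.73, 9.41, 9.2 and 13.5 in WT_hM4D, 6.73, 7.02, 6.83 and 7.62 in KO_tdT, and 7.88, 6.84, 7.67 and 6.87 in KO_hM4D. WT_hM4D 4 was the highest again, and WT_hM4D 1 lay within KO_hM4D, with an interaction of -0.57 (SE 0.17). The membrane protein Ifitm3 had -0.57 (SE 0.18).

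The values of this list differed within WT_hM4D. Its mean log2 level was 0.96, 1.18, 1.27 and 1.58 in WT_hM4D 1 to 4 against 1.02, 0.71, 0.92 and 0.83 in KO_hM4D and 0.87, 0.66, 0.72 and 0.76 in WT_tdT. WT_hM4D 1 thus lay within KO_hM4D, and WT_hM4D 2, 3 and 4 above every other library. The list median was -0.17 without WT_hM4D 4 and -0.52 with the Y-linked level as a covariate. Of 23 antigen presentation genes 19 were negative with a median of -0.19. It was -0.032 without WT_hM4D 3, -0.36 without WT_tdT 1 and lowest, at -0.37, with the Y-linked level as a covariate. Left out 1 at a time, 10 of the 16 libraries each moved it by over 1.5 times. In WT_hM4D 3 the class II genes stood apart. H2-Aa was at 5.96 CPM there and at no more than 1.59 CPM in the other 15, and the invariant chain gene Cd74 at 14.5 CPM against at most 4.72 CPM. Microglia markers were negative in 18 of 20 cases with a median of -0.13 (-0.060 without KO_tdT 4), led by P2ry13 at -0.26 (SE 0.10) and the protease Ctss at -0.27 (SE 0.12). In bulk tissue fewer cells of a type and less RNA per cell cannot be told apart. Of 18 complement genes 12 were negative with a median of -0.048 (-0.14 to -0.017 over the alternatives), and of the 18 lymphocyte markers 9 had enough counts to be tested. The T cell gene Cd3e was at no more than 0.0448 CPM in any library. The mean log2 level of the tested lymphocyte markers was -0.85, -0.93, -0.87 and -1.03 in WT_tdT, -0.38, 0.024, 0.46 and 0.98 in WT_hM4D, -1.22, -1.55, -0.67 and -1.08 in KO_tdT and -1.01, -1.05, 0.81 and 0.75 in KO_hM4D. WT_hM4D 3 and 4 and KO_hM4D 3 and 4 stood above the other 12, and the same 4 libraries had the highest antigen presentation levels, at 2.59, 2.05, 1.81 and 1.84. The part of lymphocyte RNA in the antigen presentation values was not tested.

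Chaperone genes mostly had their lowest means in WT_tdT. Of 19 endoplasmic reticulum chaperone and stress genes 17 had a negative interaction with a median of -0.20. In this list 7 were negative at an unadjusted p under 0.05, against 3.49% of all genes. The lowest mean was in WT_tdT for 15 of 19, against 27.7% of all genes. Hspa5, the chaperone BiP (chr2:34771970-34777547, GRCm38), was at 194, 214, 216 and 228 CPM in WT_tdT, 337, 285, 372 and 287 in WT_hM4D, 338, 421, 245 and 269 in KO_tdT, and 321, 353, 277 and 304 in KO_hM4D. All 4 WT_tdT libraries lay below the other 12, as for 0.312% of all genes, and the other groups overlapped. The log2 change with hM4Di was 0.59 in wild types and -0.021 in knockouts, with an interaction of -0.61 (SE 0.19, 95% interval -1.02 to -0.20). Xbp1, a transcription factor of the unfolded protein response, had -0.34 (SE 0.12), the disulfide isomerase Pdia6 -0.45 (SE 0.17), and Creld2, a secreted stress-induced protein, -0.45 (SE 0.17). With the Y-linked level as a covariate the list median was -0.040. Among 18 cytosolic and mitochondrial heat shock genes 17 were negative, with a median of -0.12 (-0.071 without KO_tdT 2, and up to 7 positive over the alternatives) and values of -1.25 (SE 0.47) for the inducible Hspa1b and -0.34 (SE 0.14) for Hspb8.

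Several of the negative genes of smallest p had their lowest values in KO_hM4D. Sned1, an extracellular matrix protein (chr1:93235841-93301065, GRCm38), was at 4.41, 4.7, 4.81 and 4.66 CPM in WT_tdT, 4.92, 4.93, 4.47 and 4.55 in WT_hM4D, 4.79, 5.07, 5.29 and 4.61 in KO_tdT, and 3.59, 3.41, 3.91 and 3.63 in KO_hM4D. All 4 KO_hM4D libraries lay below the other 12, as for 0.307% of all genes, and the other groups overlapped. Its log2 change was 0.021 in wild types and -0.44 in knockouts. The interaction was -0.46 (SE 0.10, 95% interval -0.67 to -0.26) with an edgeR adjusted p of 0.658. Over the alternatives the adjusted p was at most 0.976 and under 0.05 with DESeq2 only, at 0.00736. WT_tdT 1, also nearly without Y-linked transcripts, was the lowest library outside KO_hM4D, at 4.41 CPM, by little from WT_hM4D 3 at 4.47. WT_tdT 4 and KO_tdT 4, with low Y-linked sums of 20.4 and 7.23 CPM, were at 4.66 and 4.61 CPM. KO_tdT 3, with a sum of 25.9 CPM, was the highest of all libraries at 5.29. With the Y-linked level as a covariate the interaction was -0.42. Mmp14, a membrane-anchored matrix metalloproteinase, had -0.50 (SE 0.12), with 8.49 to 11 CPM in KO_tdT and 6.78 to 7.53 in KO_hM4D. It was at 7.38 to 8.9 CPM in WT_tdT, which overlapped KO_hM4D, and at 7.84 to 9.48 in WT_hM4D. The adhesion molecule Vcam1 had -0.44 (SE 0.11), and Bnip2 -0.25 (SE 0.066). Bnip2 was at 18.1 to 18.8 CPM in WT_tdT and 17 to 18.8 in KO_hM4D, with overlap. Rdx (radixin), which ties membranes to actin and belongs to the morphology list, was at 82.4, 88.3, 87.8 and 90 CPM in WT_tdT, 99.2, 90.7, 97.3 and 93.4 in WT_hM4D, 98, 92.1, 96.2 and 96.4 in KO_tdT, and 94.3, 85.4, 81.6 and 84 in KO_hM4D. WT_tdT and KO_hM4D were lower than the other groups, with overlap of KO_hM4D, and the interaction was -0.28 (SE 0.070).

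Ddx3y, Uty, Kdm5d and Eif2s3y were among the 12 negative genes of smallest p. Ddx3y was at 0.0190, 76.7, 75 and 10.8 CPM in WT_tdT, 76.5, 65.8, 75 and 8.83 in WT_hM4D, 76.3, 75.4, 13.6 and 3.91 in KO_tdT, and 0.0380, 0.0359, 0 and 0 in KO_hM4D. The 4 KO_hM4D libraries and WT_tdT 1 were at or near 0, and a fold against them is not given. On the positive side, Lrp1, an endocytic receptor (chr10:127538161-127621148, GRCm38), was at 872, 899.7, 912 and 899.6 CPM in WT_tdT, 830.0, 929, 814 and 863 in WT_hM4D, 858, 829, 852 and 820.0 in KO_tdT, and 959.8, 1059, 943 and 981 in KO_hM4D. The 4 KO_hM4D libraries were the highest of the 16, as for 0.312% of all genes, and the interaction was 0.29 (SE 0.075, 95% interval 0.13 to 0.45). The Notch ligand Dll4 had 0.75 (SE 0.19), Lrrc32, which docks latent TGF-beta on cell surfaces, 0.63 (SE 0.16), and the calcium sensor Cracr2a 0.75 (SE 0.19). Avp, the gene of vasopressin, which hypothalamic neurons make, was at 0.133, 0.368, 0.0670 and 0.181 CPM in WT_tdT, 0.687, 2.84, 0.136 and 0.524 in WT_hM4D, 0.0671, 2.88, 0.810 and 1.61 in KO_tdT, and 0.291, 0.0646, 0.0280 and 0.0905 in KO_hM4D. It was over 1 CPM in WT_hM4D 2, KO_tdT 2 and KO_tdT 4 only.

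Markers of neurons outside the striatum also moved with the contrast. Of 22 thalamic, septal and pallidal markers 21 were negative, with a median of -0.82 (-0.40 without KO_tdT 3 and -1.25 without KO_hM4D 1). Their mean log2 level was 1.71, 1.81, 1.73 and 1.89 in WT_tdT, 2.37, 1.80, 2.28 and 2.73 in WT_hM4D, 1.77, 2.39, 3.52 and 2.84 in KO_tdT and 3.32, 2.16, 1.84 and 1.88 in KO_hM4D. KO_tdT 3 and KO_hM4D 1 were the highest, and WT_tdT the most uniform. Calb2 (calretinin, chr8:110137502-110168210, GRCm38) was at 3.71, 5.54, 4.95 and 5.1 CPM in WT_tdT, 5.88, 7.41, 4.77 and 11.9 in WT_hM4D, 5.18, 16.4, 14.3 and 12.7 in KO_tdT, and 6.54, 5.05, 5.75 and 6.82 in KO_hM4D. KO_tdT 2, 3 and 4 were the highest libraries, and the interaction was -1.64 (SE 0.42). Calb2 is in the interneuron list as well, where it had the lowest interaction. Whether its counts came from neurons inside or outside the striatum was not tested. Of 16 cortical excitatory markers 16 were positive with a median of 0.44 (0.28 without WT_tdT 3, 0.68 without WT_hM4D 2 and 0.27 without KO_tdT 4), and their level was 5.80, 5.35, 5.41 and 4.60 in KO_tdT and 5.38, 6.0, 5.52 and 5.58 in KO_hM4D, with KO_tdT 4 the lowest of all 16. Emx1, a cortical transcription factor, had 0.85 (SE 0.39) and Rspo1, a secreted Wnt pathway agonist, 0.95 (SE 0.34). With the thalamic marker level as a covariate the early gene median was 0.38, that of the reactive astrocyte genes -0.21 and that of the interferon genes -0.22.

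Oligodendrocyte markers were negative in 18 of 18 cases with a median of -0.29. This median rested on KO_tdT 4, where their level was the highest of the 16 libraries: without that library it was 0.014 with 10 of 18 positive, and it was -0.44 without KO_tdT 2 and 0.010 with the thalamic covariate. Precursor cell markers were negative in 13 of 14 cases, 5 at an unadjusted p under 0.05, against 3.49% of all genes. The list median was -0.27 and ran from -0.38 to -0.17 over the alternatives. C1ql1, a secreted synaptic protein of precursors, had -0.62 (SE 0.20), the lineage factor Olig2 -0.46 (SE 0.19) and the growth factor receptor Pdgfra -0.22 (SE 0.095). Astrocyte markers had a median of -0.029 with 15 of 25 negative, and the sign of that median changed over the alternatives (-0.081 to 0.085). The water channel Aqp4 had -0.52 (SE 0.17), with 122 to 160.2 CPM in KO_tdT and 101 to 121 in KO_hM4D. In WT_tdT it was at 91.7 to 152 CPM, which overlapped every other group, and in WT_hM4D at 127 to 149. The gap junction gene Gja1 had -0.24 (SE 0.086), and F3 had the opposite sign at 0.20. Shared markers of striatal projection neurons had a median of -0.020, which became 0.20 without KO_tdT 4 and -0.24 with the Y-linked covariate.

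**Figure D4:**
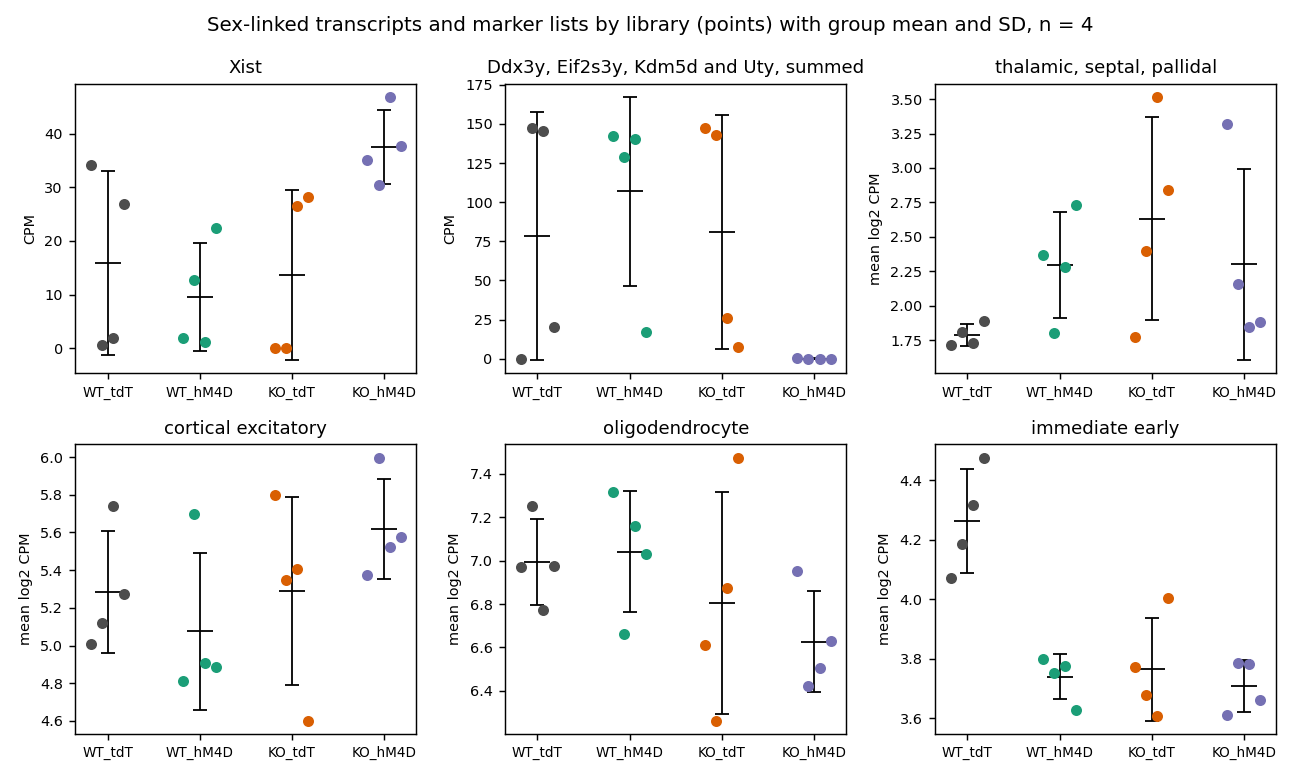
Xist and summed Y-linked transcripts in CPM, and the mean log2 CPM of 4 gene lists, in each library (points, replicates 1 to 4 from left to right) by group with the group mean and SD (n = 4). KO_hM4D holds only libraries at or near 0 for Y-linked transcripts, KO_tdT 3 and KO_hM4D 1 are highest for thalamic, septal and pallidal markers, and WT_tdT is highest for immediate early genes.

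The lists nearest to the receptor and to astrocyte shape stayed near 0. Of 42 Gi and cAMP signalling genes 20 were positive (47.6%, against 48.8% of all genes), with a median of -0.010 (-0.021 to 0.022 over the alternatives). Against 6.77% of all genes, 1 member (2.38%) had an unadjusted p under 0.05. That was Gnai2, an inhibitory G protein alpha subunit, at -0.21 (SE 0.068, 95% interval -0.35 to -0.065), with 87.7 to 102 CPM in KO_tdT and 82.3 to 88.8 in KO_hM4D. Gnao1, the Go subunit, had 0.15 (SE 0.080, 95% interval -0.021 to 0.32) and the phosphodiesterase Pde4d 0.16 (SE 0.094, 95% interval -0.034 to 0.36). Of 45 morphology and actin genes 21 were positive with a median of -0.012 (-0.024 to 0.021) and values from -0.28 to 0.67. Besides Rdx and Gja1, the adhesion protein gene Nlgn2 had 0.20 (SE 0.089), and Cdc42, a small GTPase of actin, -0.15 (SE 0.077). Of 19 synaptogenic astrocyte genes 8 were positive with a median of -0.072 (-0.15 to 0.020), and 0 had an unadjusted p under 0.05. Tnc had the lowest value of this list, -0.86, which was -0.29 with the thalamic covariate. Bcan was at -0.12, Gpc6 at -0.17 and Thbs2 (thrombospondin) at 0.23 (SE 0.24). Of 39 postsynaptic density genes 25 were positive with a median of 0.035 (0.018 to 0.10). The NMDA receptor subunit genes Grin1 and Grin2a had 0.21 (SE 0.087) and 0.42 (SE 0.18), and the SAPAP3 relative Dlgap2 had 0.18 (SE 0.089).

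**Figure D5:**
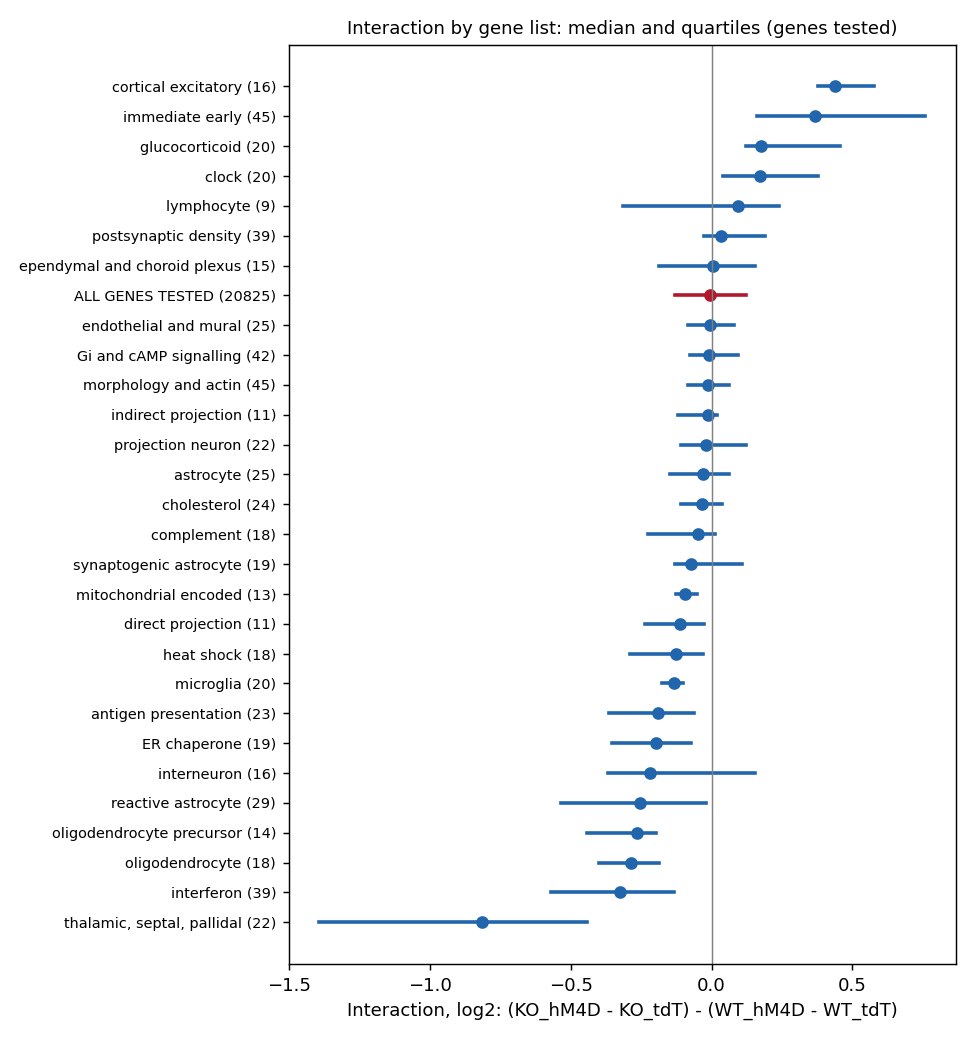
Median (point) and quartiles (bar) of the interaction in log2 over the tested members of each of 28 gene lists, with the number of genes in brackets, and over all genes tested (red). Cortical and immediate early genes lie on the positive side, thalamic, interferon, oligodendrocyte lineage and reactive astrocyte genes on the negative side, and Gi signalling, morphology and postsynaptic density genes near 0.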

How the data were processed

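Striatal RNA was extracted with a Qiagen kit, and ribosomal RNA was depleted before stranded libraries were built, per the labels' protocols. The authors deposited raw read counts as whole numbers for 48795 genes in 16 libraries. bcl2fastq 2.17, STAR and HTSeq and the builds GRCm38 and mm10 are named, per the submitters' processing notes. The strand setting and annotation release were not given in the sources used here, so overlapping and near-identical genes are uncertain. Coordinates are from GENCODE M21 on GRCm38, which matched 20743 of 20825 identifiers tested, and promoter sequences from RefSeq on GRCm38.p6.

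Counts were filtered with filterByExpr by group, scaled with TMM factors and fitted with 1 coefficient per group in edgeR 4.0.16 (R 4.3.3; coefficient of biological variation 0.13). P-values came from two-sided quasi-likelihood tests, adjusted over all genes tested by Benjamini and Hochberg's method, with a threshold of 0.05. Adjusted p refers to edgeR unless another tool is named, and SE and 95% intervals are from the same fit. List levels are means of log2 CPM with a prior count of 2. limma 3.58.1 (voom) and DESeq2 1.42.0 were alternatives, as were RLE size factors, other filters on low counts, each library left out, a replicate block, covariates for Y-linked and thalamic marker levels and left-out libraries. Replicate counts differed beyond sampling noise in all 24 within-group pairs (chi-square over degrees of freedom 12.3 to 138). The labels do not say whether each library came from a separate mouse, so p-values measure the spread between libraries, which may be technical.

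The gene lists and members were chosen with earlier results of these data known and support nothing by themselves. Named genes were Dlgap3 and Chrm4, the 12 genes of smallest interaction p in each direction with at least 1 CPM in a group and a symbol that is no numbered gene model, up to 4 members of smallest p per list, and genes called in either virus comparison, with exceptions named in the text. Of the list members, 15 of 652 had too few counts to be tested. Results of some genes are not reported here.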

Additional observations from a re-analysis of the deposited data

Results flagged for a closer look

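In a group of 4 libraries, the highest or lowest library was marked where its gap to the nearest other exceeded Dixon's 95% critical share of the group's range. This held for 41 of 528 combinations of named gene and group, and chance marks about 1 in 20. Values are CPM. WT_tdT 1 lay far below its group for Pdia6 (66.9). WT_tdT 2 lay far above its group for Fam167a (1.26). WT_tdT 3 lay far above its group for Emx1 (11.8), Lamp5 (127) and below it for Lhfpl3 (31.4). WT_tdT 4 lay far above its group for Hspb1 (2.9). WT_hM4D 1 lay far above its group for Btg2 (10.8). WT_hM4D 2 lay far above its group for Rorb (111), Grin2a (481) and below it for Ddit4 (15.4), Upb1 (1.19), Lhfpl3 (32.2). WT_hM4D 3 lay far above its group for H2-Aa (5.96), H2-Eb1 (4.4) and below it for Nfkbia (11.3). WT_hM4D 4 lay far above its group for Gja1 (162), Cd79a (0.142), Zic4 (4.52), Otx2 (0.992) and below it for Ddx3y (8.83), Uty (3.86), Kdm5d (2.37), Eif2s3y (1.76). KO_tdT 1 lay far above its group for Adcy9 (119.6), Grik3 (166), Tekt1 (1.36) and below it for mt-Nd4l (0.455). KO_tdT 3 lay far below its group for Bnip2 (19). KO_tdT 4 lay far above its group for Ryr1 (25.8), Meis2 (417), Junb (70.7). KO_hM4D 1 lay far above its group for Zfp521 (23.2), Meis2 (345), Zic4 (2.16), Shox2 (12.9), C1ql1 (4.73), Otx2 (0.570). KO_hM4D 2 lay far above its group for Grin2a (622) and below it for C4b (29.9). KO_hM4D 3 lay far above its group for Btg2 (11.2), Cyr61 (3.48). WT_hM4D 4 had 8 of these values, of which the 4 Y-linked genes are 4, KO_hM4D 1 had 6 and WT_hM4D 2 had 5. Junb in KO_tdT 4 was at 70.7 CPM against 32.1 to 34.3 in its group, and C4b in KO_hM4D 2 at 29.9 CPM against 63.3 to 66.5.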

How the results depend on the processing

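The count of interaction calls, 0, was 12 with DESeq2, 1 without the 4 mixed libraries over the 5% limit (Cry1, -0.77, edgeR adjusted p = 0.0406) and 0 in the other 8 planned or added alternatives that kept or scaled the libraries otherwise; leaving out 1 library gave 0 to 4. It was 4 without KO_tdT 4 (Nr4a1, 1.89; Arl4d, 1.05, edgeR adjusted p = 0.00389; Junb, 1.17, edgeR adjusted p = 0.00682; Dusp1, 1.16, edgeR adjusted p = 0.0294), 3 without WT_tdT 1 (Btg2, 1.41, edgeR adjusted p = 0.00464, Cyr61, 1.19, edgeR adjusted p = 0.0368, and a numbered gene model), and 0 without any other library. Calls in wild types, 18, numbered 256 with DESeq2, 28 with the Y-linked covariate and 1 without the mixed libraries. They ranged from 6 to 65 with 1 library left out, and moved by over 1.5 times without WT_tdT 3 (8), WT_tdT 4 (6), WT_hM4D 2 (42), WT_hM4D 3 (9), KO_tdT 2 (65), KO_tdT 3 (28) or KO_tdT 4 (38). The call in knockouts, 1, became 124 with DESeq2 and 0 with limma-voom, the 1 CPM filter, the replicate block, either covariate, without the mixed libraries and, chosen after seeing the data, without KO_tdT 3 and KO_hM4D 1, and ranged from 0 to 8 with 1 library left out. It was 8 without WT_tdT 1 or KO_tdT 1, 4 without KO_hM4D 2, 1 without WT_tdT 3, 1 other gene, which fell, and not C4b, without KO_hM4D 4, and 0 without any of the other 11. The wild-type log2 changes use no knockout library, but all groups share 1 estimate of the spread. Without KO_tdT 4 the wild-type change of Junb stayed at -1.18, with an SE of 0.10 in place of 0.20. That of Gfap stayed at 1.33, with an SE of 0.14 in place of 0.15. Beyond that, the cause of these shifts was not tested. Replicate numbers were shared by the groups but did not pair the libraries (6 of 24 same-numbered pairs correlated over 0.1, and 3 of 16 libraries correlated best with their own number). With the replicate block the counts were 0 in the interaction, 13 in wild types and 0 in knockouts. Of 3474 recomputed interaction values of 134 named genes 12 changed sign: Dlgap3 0.034 (without WT_tdT 2); Chrm4 0.12 and Gpr6 0.067 (without KO_tdT 4); Cd4 -0.11 and Ryr1 -0.035 (Y-linked covariate); Cd79a 0.15 (limma-voom); Cd79a 0.59 (without KO_tdT 3); Cd79a 0.92 (without the mixed libraries); Cd79a 0.073, Zfp521 0.076, mt-Co2 0.029 and mt-Co3 0.043 (thalamic covariate). With 1 library left out the range was -0.15 to 0.034 for Dlgap3, -0.20 to 0.12 for Chrm4, -0.38 to 0.067 for Gpr6 and -0.89 to 0.59 for Cd79a. Over the alternatives the adjusted p ran from 0.00389 to 0.983 for Arl4d, 0.00682 to 0.983 for Junb, 0.0368 to 0.983 for Cyr61 and 0.0406 to 0.983 for Cry1. Replicates differed beyond counting noise, so the spread between libraries limits these values.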

Other observations

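Some gene groups had the same sign with hM4Di in both genotypes. All 13 mitochondrially encoded genes were negative in wild types (median -0.21) and in knockouts (median -0.28), with 0 called in either, and their interaction median of -0.10 changed sign over the alternatives (-0.24 to 0.029). Of 24 cholesterol synthesis and transport genes 20 were negative in wild types and 18 in knockouts, with an interaction median of -0.034. Cyp51, an enzyme of sterol synthesis, had -0.16 and -0.31. Endothelial and mural markers were positive in 18 of 25 in each genotype. Among them the interaction was -0.33 (SE 0.11) for the tight junction gene Cldn5 and 0.53 (SE 0.23) for Vwf (von Willebrand factor), which was at 19.1, 11.5, 10.4 and 12.5 CPM in WT_tdT, 13.2, 13, 14.6 and 13.7 in WT_hM4D, 11.7, 9.75, 13.5 and 12.9 in KO_tdT, and 15.8, 17.4, 21.8 and 15.3 in KO_hM4D. Ependymal and choroid plexus markers had an interaction median of 0.0060, and interneuron markers one of -0.22 (-0.093 without KO_tdT 2 and -0.13 without KO_tdT 4).

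Projection neuron markers were mostly negative with hM4Di in both genotypes. Indirect pathway markers were negative in 7 of 11 in wild types (median -0.083) and 9 in knockouts (median -0.13), with an interaction median of -0.012 that ran from -0.22 to 0.070 over the alternatives. Shared projection neuron markers were negative in 19 of 22 in wild types and 18 in knockouts. Direct pathway markers had a negative interaction in 9 of 11, with a median of -0.11 that ran from -0.32 to -0.0060. The wild-type calls Fam167a and Galnt7, a glycosyltransferase, had interactions of -0.65 (SE 0.20) and -0.28 (SE 0.081). Galnt7 was at 11.1, 10.8, 10.4 and 11.1 CPM in WT_tdT, 14.4, 13, 14 and 13.4 in WT_hM4D, 13.6, 13.3, 12.4 and 12.5 in KO_tdT, and 14.6, 13.3, 12.5 and 13.7 in KO_hM4D, lowest in WT_tdT without overlap. Cxcl10, a chemokine, was below 1 CPM in every library and highest in WT_hM4D, at 0.196 to 0.438 CPM against 0.0144 to 0.0952 in KO_hM4D.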
